A study of Mus musculus with 6 samples.

Results

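Major histocompatibility complex (MHC) class II antigen presentation was examined through 9 genes, chosen by name: H2-Aa, H2-Ab1, H2-Eb1, Cd74, Ciita, H2-DMa, H2-DMb1, H2-Oa and H2-Ob. Of these 9, 8 were measured by at least 1 probe set assigned to a single gene, with 16 such probe sets among them, out of 18193 genes measured in all. H2-DMb1 was represented only by 2 probe sets that it shares with its neighbour and close copy H2-DMb2, and H2-Ob had, besides its own probe set, 1 shared with Gm20506. The samples were white adipose tissue of 3 KSR2-/- mice and 3 WT mice, all C57Bl6 females aged 6 months, with the total RNA of each mouse on 1 Affymetrix array. KSR2, missing in the knockouts, is a scaffold for kinases of the ERK pathway. The sources used here do not give the fat depot, the deleted part of the gene or how the animals were related, and p-values measure the spread between these animals.

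MHC class II molecules present peptides from endocytosed proteins to CD4+ T cells, and are made chiefly by macrophages, dendritic cells and B cells, and in fat also by adipocytes. An alpha and a beta chain, H2-Aa with H2-Ab1 in the I-A molecule, assemble with the invariant chain, encoded by Cd74, which guards the groove and directs the complex to endosomes. There cathepsins degrade the invariant chain, the H2-DM heterodimer exchanges its remnant for peptide, and the H2-O heterodimer, best known in B cells, restrains H2-DM. Ciita encodes the transactivator that the promoters of these genes recruit through factors bound to their X and Y boxes.

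The promoter stretches around the Y box are shown because these letters are the shared control element of the family. They are RefSeq sequences of GRCm38.p6, written 5′ to 3′ in the direction of transcription, with the Y box letters ATTGG and any match to the X box in capitals. The stretches lie at chr17:34287842-34287931 on the minus strand for H2-Aa and, on the plus strand, at chr17:34305748-34305837 for H2-Eb1, chr17:34153070-34153159 for H2-DMb1, chr17:34145099-34145188 for H2-DMb2, chr17:34092276-34092365 for H2-Oa and chr17:34238788-34238877 for H2-Ob.
H2-Aa: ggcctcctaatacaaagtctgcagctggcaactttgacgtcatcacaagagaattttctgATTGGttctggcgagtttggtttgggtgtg
H2-Eb1: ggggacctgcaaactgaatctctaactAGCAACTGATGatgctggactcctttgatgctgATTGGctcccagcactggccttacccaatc
H2-DMb1: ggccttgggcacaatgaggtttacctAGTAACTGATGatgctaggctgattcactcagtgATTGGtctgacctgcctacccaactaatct
H2-DMb2: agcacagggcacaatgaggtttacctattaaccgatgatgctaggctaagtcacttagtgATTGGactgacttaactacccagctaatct
H2-Oa: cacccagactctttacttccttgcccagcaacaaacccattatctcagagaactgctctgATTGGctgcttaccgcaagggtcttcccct
H2-Ob: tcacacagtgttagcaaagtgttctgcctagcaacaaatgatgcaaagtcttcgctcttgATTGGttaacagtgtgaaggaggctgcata

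Of the 9 genes, 6 had a promoter window that was examined, reaching from 250 bases before to 50 bases after a start. No window of H2-Ab1, Cd74 or Ciita was examined. All of the 6 held ATTGG on either strand in at least 1 window, as did 37.4% of all 32851 windows. A match to the X box letters searched, on either strand, lay in 3 of the 6, H2-Eb1, H2-DMb1 and H2-Oa. Of all windows, 4.61% held one. An X box match followed by ATTGG on the same strand at a distance of 10 to 30 bases was found in H2-Eb1 and H2-DMb1. These had 22 and 23 bases between, and 0.0700% of all windows held such a pair. In H2-Oa the match lay at −141 from the start, outside the stretch shown, with 87 bases between it and ATTGG. H2-DMa, whose stretch is not shown, held ATTGG at −198 from the start in 1 window and none in another. H2-DMb2, whose stretch is identical to that of H2-DMb1 at 76 of 90 positions aligned without gaps, has ATTGG but no match to the X box letters searched. A match is a run of letters and was not tested for binding. Only the letters searched were counted, so a gene without a match, such as H2-Aa or H2-Ob, was not shown to lack an X box.

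All 6 arrays carried the fat-cell transcripts Adipoq and Fabp4 at high signal, with log2 intensities of 12.70 to 13.40 in KSR2-/- fat against 13.46 to 13.58 in WT fat for Adipoq, and 13.66 to 13.81 against 13.66 to 13.90 for Fabp4. Values throughout are log2 of the RMA intensity. The arrays fall into a higher-numbered series of animals (knockouts 1 and 2, wild types 1 and 2) and a lower-numbered pair (knockout 3 and wild type 3). Wild type 3 stood apart in RNA integrity: its 3′ minus 5′ difference of the Gapdh control probe sets was 4.18 log2, against 0.07 to 1.46 on the other arrays. Over all genes, limma called 1 of 18193 at an adjusted p under 0.05, and 816 with knockout 3 left out.

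None of the class II genes passed the test. By limma 0 of 8 were called, where 0.0055% of all genes were, and 1 of 8 had an unadjusted p under 0.05, where 12.1% of all genes did. That 1 gene was higher in KSR2-/- fat, as 6.71% of all genes were at this p, and 0 of 8 were lower, where 5.38% were. The count of 1 at this p became 0 without knockout 1, knockout 3 or wild type 2, and 2 without wild type 1. All 8 main probe sets measured a difference above 0, against 44.4% of all genes, with H2-Aa and Ciita turning to just below 0 when each array was centred on its median gene. The median difference of the 8 was 0.23 log2, beside −0.04 over all genes, and 0.31 with wild type 3 left out. On the main probe sets, the 95% interval of the difference stayed below a 2-fold higher value for 7 of the 8, all but H2-Ob. For all 8 it excluded a 2-fold lower value. This did not hold for every other probe set: the intervals of the other H2-Ab1 probe sets reached 1.28 and 1.07 log2. That of 1 H2-Aa probe set ran from −1.17 to 1.01. In a bulk sample of tissue, a change in the number of cells that express a gene and a change in the RNA per cell cannot be told apart.

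**Figure D1:**
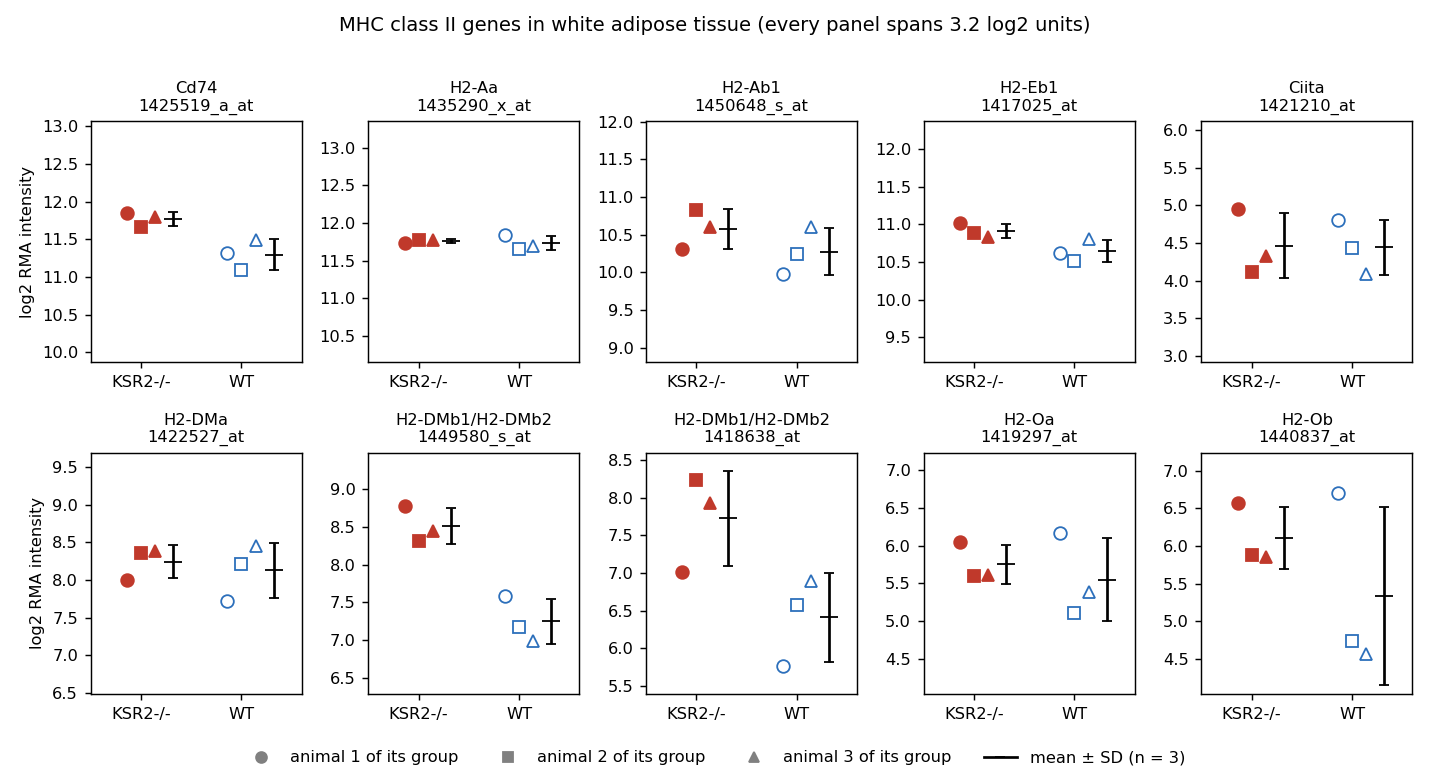
Log2 RMA intensity (vertical axes, each spanning 3.2 log2 units) of the class II genes on each array, with 3 KSR2-/- animals (filled) left of 3 WT animals (open) and the mean ± SD beside them. The groups separate for Cd74, narrowly for H2-Eb1, and for both probe sets shared by H2-DMb1 and H2-DMb2.

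The invariant chain gene Cd74 had the lowest p of the 8. It measured 11.85, 11.66 and 11.80 in knockouts 1 to 3, against 11.32, 11.09 and 11.49 in wild types 1 to 3. Every knockout lay above every wild type, knockout 3 as clearly as the others, at 0.50 above the wild-type mean against 0.55 and 0.36 for knockouts 1 and 2. The difference was 0.47 log2 (SE 0.17, 95% interval 0.08 to 0.86), or 1.38-fold, with an adjusted p of 0.337 by limma, and 0.56 without wild type 3. It came to 0.55 among the higher-numbered animals and 0.31 in the lower-numbered pair.

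H2-Eb1, a beta chain of the I-E molecule, measured 11.01, 10.88 and 10.83 in knockouts 1 to 3 and 10.62, 10.52 and 10.80 in wild types 1 to 3. The groups did not overlap, but knockout 3 and wild type 3 were almost level, so that the difference of 0.26 log2 (SE 0.16, limma adjusted p = 0.585) was 0.38 among the higher-numbered animals and 0.02 in the lower-numbered pair. Cd74 and H2-Eb1 were the 2 of 8 genes whose groups did not overlap with the knockouts higher, where 7.72% of all genes did so, and 0 of 8 separated with the knockouts lower, where 8.56% did. H2-Ea, which encodes the alpha chain partner of H2-Eb1 in mouse strains that make I-E and is annotated as a transcribed pseudogene in RefSeq, measured 6.77, 5.64 and 5.41 in knockouts 1 to 3 and 6.93, 5.87 and 6.10 in wild types 1 to 3 by its main probe set. Its other 2 probe sets read at most 3.07 in the knockouts and 3.17 in the wild types.

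H2-Ab1, the beta chain of I-A, measured 10.30, 10.83 and 10.60 in knockouts 1 to 3 against 9.98, 10.24 and 10.60 in wild types 1 to 3. The groups overlapped, with wild type 3 above knockout 1 and level with knockout 3. The difference was 0.30 log2 (SE 0.22, limma adjusted p = 0.672), 0.46 among the higher-numbered animals and −0.00582 in the lower-numbered pair. It was 0.16 without wild type 1, 0.18 without knockout 2 and 0.47 without wild type 3. Its other 2 single-gene probe sets differed by 0.36 and 0.47 log2 (limma adjusted p = 0.767 and 0.719 over all probe sets), and by 0.31 and 0.54 in the lower-numbered pair.

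H2-Aa, the alpha chain of I-A, had the smallest SE of the 8 main probe sets. It measured 11.73, 11.78 and 11.78 in knockouts 1 to 3 against 11.84, 11.66 and 11.70 in wild types 1 to 3. The difference was 0.03 log2 (SE 0.14, 95% interval −0.31 to 0.37, limma adjusted p = 0.968). The other 3 single-gene probe sets of H2-Aa differed by −0.03, −0.08 and 0.08 log2. On 2 of them knockout 1 and wild type 1 were low together, and one of these read 6.27 in knockout 1 and 6.42 in wild type 1, against 7.50 and 7.57 in knockouts 2 and 3 and 7.43 and 7.72 in wild types 2 and 3. The main probe set of H2-Aa did not show this split. Knockout 1 and wild type 1 were also the lowest of their groups on every H2-Ab1 probe set and the main one of H2-DMa. On the H2-Oa and H2-Ob probe sets they were the highest of their groups. The 2 probe sets shared by H2-DMb1 and H2-DMb2 differed in this, 1 having them lowest and 1 highest. These arrays had the smallest Gapdh differences, 0.47 and 0.07 log2, and the cause of the split was not tested.

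Ciita gave a dim signal on every array. The main probe set measured 4.94, 4.12 and 4.32 in knockouts 1 to 3 and 4.80, 4.43 and 4.08 in wild types 1 to 3, where the median of all values on the arrays was 4.55. The difference was 0.02 log2 (SE 0.28, 95% interval −0.64 to 0.68, limma adjusted p = 0.991). Its other 2 probe sets read 2.95 to 3.93 in the knockouts and 2.65 to 3.65 in the wild types and differed by 0.12 and 0.01 log2.

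**Figure D2:**
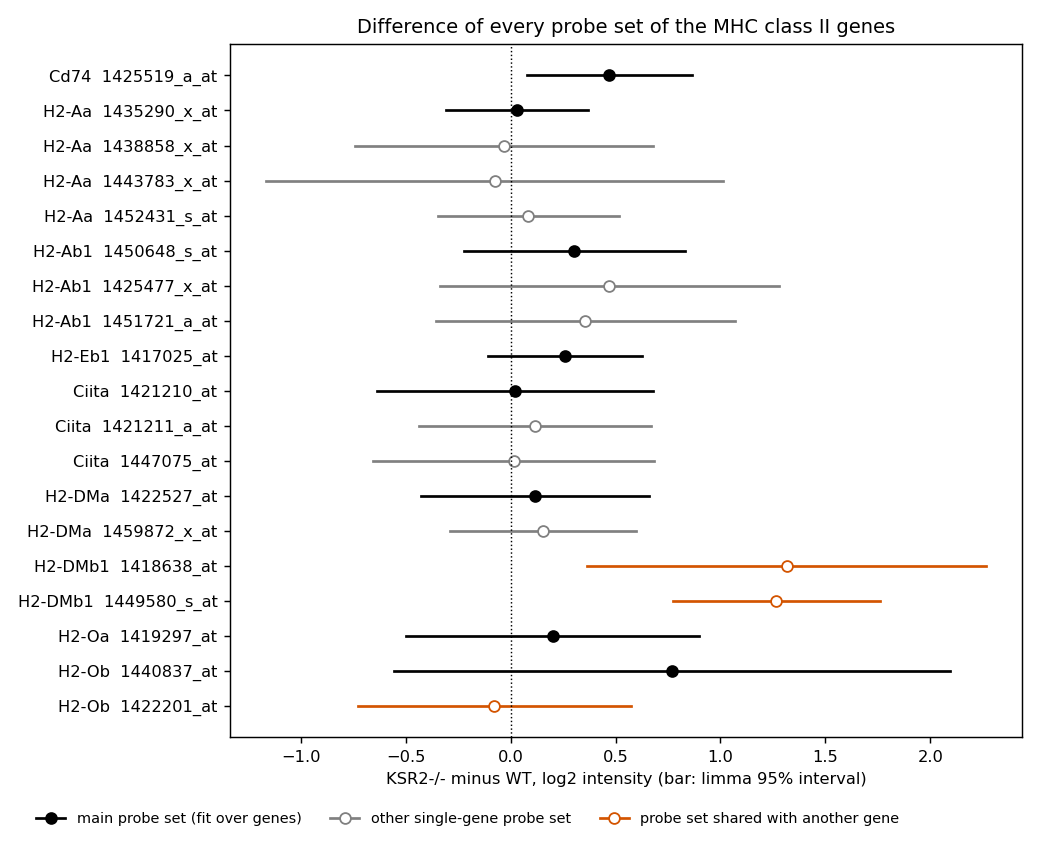
Difference of KSR2-/- minus WT in log2 intensity (horizontal axis) for all probe sets of the 9 genes, with limma's 95% interval as a bar; filled points are main probe sets, open ones others. The probe sets shared by H2-DMb1 and H2-DMb2, at 1.31 and 1.27, lie to the right of all the others, and the intervals of H2-Aa, H2-Ab1 and H2-Eb1 include 0.

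H2-DMa, the alpha chain of H2-DM, measured 8.00, 8.35 and 8.38 in knockouts 1 to 3 and 7.73, 8.21 and 8.45 in wild types 1 to 3, overlapping groups with a difference of 0.12 log2 (SE 0.23, limma adjusted p = 0.905), and 0.15 by its other probe set. The beta chain was read only through the 2 probe sets it shares with H2-DMb2. The first measured 8.78, 8.32 and 8.45 in knockouts 1 to 3 against 7.58, 7.18 and 6.99 in wild types 1 to 3. The lowest knockout stood 0.74 above the highest wild type. The difference was 1.27 log2 (SE 0.21, 95% interval 0.77 to 1.76), or 2.41-fold, unadjusted p = 0.000541 and adjusted p = 0.262 by limma over all 45037 probe sets, of which 0.0% passed.

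The second shared probe set measured 7.01, 8.23 and 7.93 in knockouts 1 to 3 against 5.76, 6.58 and 6.90 in wild types 1 to 3, again without overlap, as in 7.23% of all probe sets. The difference was 1.31 log2 (SE 0.40, 95% interval 0.36 to 2.27), or 2.49-fold, with an unadjusted p of 0.0140 and an adjusted p of 0.370 by limma. Of all probe sets, 5.91% had an unadjusted p under 0.05 with the knockouts higher, and both shared ones did. Here the margin between the groups was small, knockout 1 lying 0.12 above wild type 3. Among the higher-numbered animals the first differed by 1.17 and the second by 1.45 log2, and in the lower-numbered pair by 1.46 and 1.04. The knockouts lay 0.60 to 1.82 above the wild-type mean on these probe sets.

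H2-DMb2 has 3 probe sets of its own, and none separated the groups. They differed by −0.06, 0.35 and 0.15 log2 (SE 0.38, 0.23 and 0.24, limma adjusted p = 0.983, 0.684 and 0.897). On its main probe set H2-DMb2 measured 7.34, 7.23 and 7.40 in knockouts 1 to 3 and 7.71, 6.87 and 6.93 in wild types 1 to 3. Subtracting the mean of these 3 from the mean of the 2 shared probe sets on each array gave 1.21, 1.91 and 1.65 in knockouts 1 to 3 against −0.32, 0.73 and 0.93 in wild types 1 to 3. The means were 1.59 ± 0.35 in KSR2-/- fat and 0.45 ± 0.67 in WT fat (SD, n = 3 each), a difference of 1.14 log2 (two-sided exact permutation p = 0.1, the smallest that 3 against 3 arrays allow). With the first shared probe set alone the difference was 1.12 log2 (exact permutation p = 0.1), and with the second alone 1.17 log2 (exact permutation p = 0.3). This subtraction was chosen after the values were seen. It is therefore a description, and how much of the shared signal came from H2-DMb1 was not measured.

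The genes of H2-O varied more within the groups. H2-Ob, its beta chain, measured 6.58, 5.88 and 5.86 in knockouts 1 to 3, against 6.70, 4.74 and 4.57 in wild types 1 to 3. Wild type 1 was the highest of all 6 arrays and the other wild types the lowest. The difference was 0.77 log2 (SE 0.56, 95% interval −0.56 to 2.09, limma adjusted p = 0.671), and 1.45 with wild type 1 left out (limma adjusted p = 0.317). H2-Oa, its alpha chain, measured 6.05, 5.60 and 5.61 in knockouts 1 to 3 and 6.16, 5.10 and 5.39 in wild types 1 to 3, with wild type 1 again the highest and a difference of 0.20 log2 (SE 0.30, limma adjusted p = 0.862). The probe set that H2-Ob shares with Gm20506 differed by −0.08 log2.

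B cell markers had the same arrays at the extremes as H2-Ob, whereas H2-Oa was lowest on wild type 2, at 5.10. The mean log2 intensity of the 9 measured of 10 markers was 5.95, 5.47 and 5.76 in knockouts 1 to 3 and 6.31, 5.16 and 4.85 in wild types 1 to 3. Wild type 1 was the highest and wild type 3 the lowest in both this list and H2-Ob. The B cell surface gene Ms4a1 read 7.19, 6.57 and 7.18 in knockouts 1 to 3 and 8.06, 6.38 and 5.27 in wild types 1 to 3. The summed linear intensity of the list ranged from 553 to 740 in KSR2-/- fat and from 321 to 995 in WT fat. Of its 9 markers 0 passed limma, and the median difference was 0.34 log2. At an unadjusted limma p under 0.05 stood 0 of them, where 12.1% of all genes did. T cell markers, 7 of 10 measured, likewise had wild type 1 among the highest, with sums of 293 to 538 in KSR2-/- fat and 195 to 558 in WT fat, and 0 passed at either p. Their part in the values of H2-Oa and H2-Ob was not tested.

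Macrophage markers followed another pattern over the arrays. Of the 10, none passed limma, and 4 were higher in KSR2-/- fat at an unadjusted p under 0.05, where 6.71% of all genes were. The list's median difference was 0.83 log2. Its mean lay 1.26 and 1.30 above the wild-type mean in knockouts 1 and 2 and 0.15 above it in knockout 3, and its summed linear intensity ran from 9601 to 22182 in KSR2-/- fat and from 8433 to 9608 in WT fat. Cd74 in knockout 3, at 0.50, and the shared H2-DMb probe sets in knockout 3, at 1.20 and 1.52, were as far above the wild-type mean as in the other knockouts or nearly so. H2-Eb1 was lower in knockout 3, at 0.18, than in knockouts 1 and 2, at 0.37 and 0.23. In the lower-numbered pair the macrophage list differed by 0.13 log2. There Cd74, Ciita, H2-Oa and H2-Ob differed by 0.31, 0.24, 0.22 and 1.29. H2-Aa, H2-Eb1, H2-Ab1 and H2-DMa differed by 0.08, 0.02, −0.00582 and −0.0655. Single markers varied: Cd68, a lysosomal glycoprotein of macrophages, measured 10.88, 10.85 and 8.84 in knockouts 1 to 3 against 7.55, 7.95 and 7.67 in wild types 1 to 3 (difference 2.47, SE 0.53, limma adjusted p = 0.212), and knockout 3 lay 1.12 above the wild-type mean. Dendritic cell markers, 9 of 10 measured, had a median difference of 0.19, with 0 called. At an unadjusted limma p under 0.05, 1 was higher and 1 lower, where 6.71% and 5.38% of all genes were. Among these markers Itgax, an integrin chain also found on macrophages of obese fat, measured 9.81, 9.98 and 7.60 in knockouts 1 to 3 and 5.89, 5.46 and 6.14 in wild types 1 to 3 (difference 3.30, SE 0.61, limma adjusted p = 0.197). Cd209a, a lectin of monocyte-derived dendritic cells, measured 6.70, 6.20 and 6.79 against 7.31, 7.72 and 7.22 (difference −0.85, SE 0.23, adjusted p = 0.249 by limma). The sums of the list were 1395 to 3213 in KSR2-/- fat and 1344 to 1679 in WT fat. How these cell types bear on the class II values was not tested.

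**Figure D3:**
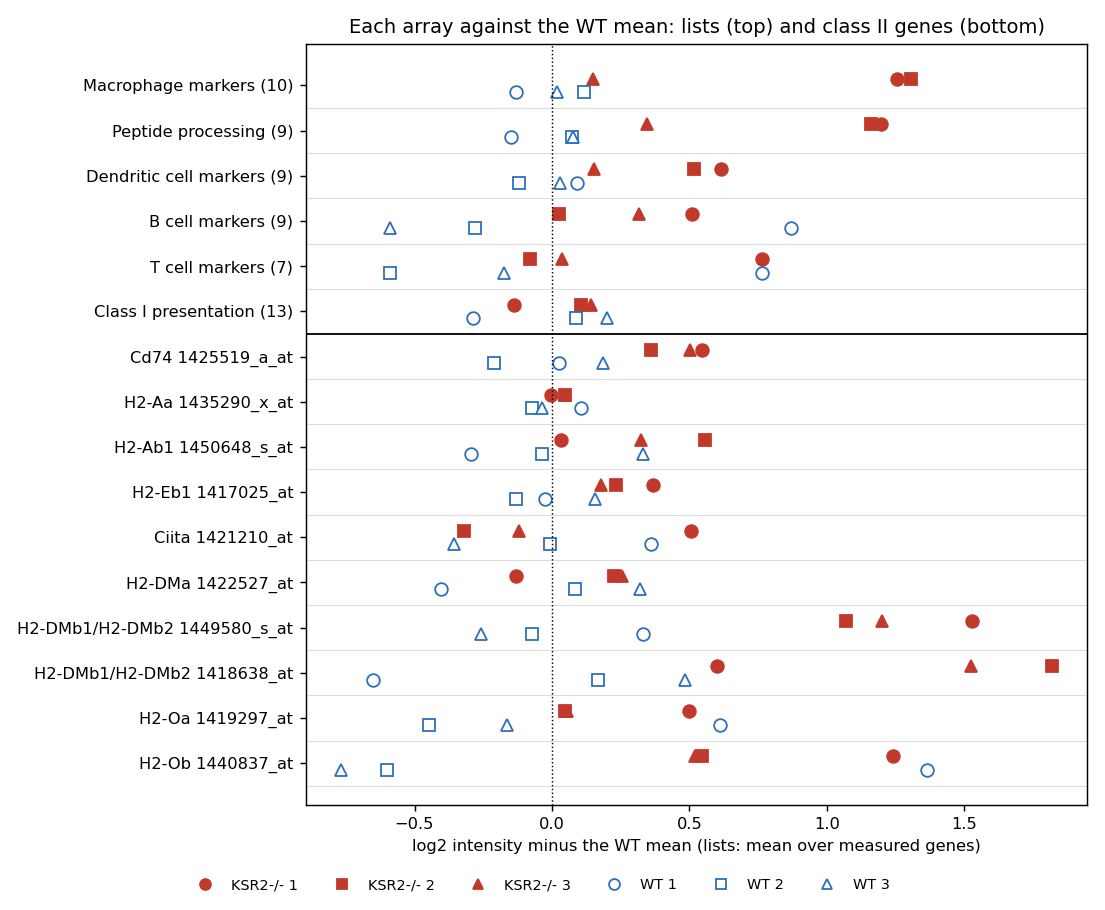
Log2 intensity of each array minus the wild-type mean (horizontal axis) for 6 gene lists, each as the mean of its measured genes in brackets, and for the class II probe sets; filled symbols are KSR2-/- animals and open symbols WT animals. Knockout 3 lies at 0.15 for the mean of the macrophage markers, though at 1.12 for Cd68 among them. It lies at 0.50 for Cd74 and at 0.18 for H2-Eb1.

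Of 10 listed genes that prepare peptides for class II, 9 were measured and all 9 had a positive difference, with a median of 0.74 log2. None passed the test, and 5 were higher at an unadjusted p under 0.05, where 6.71% of all genes were. Cathepsin S, Ctss, the protease that cleaves the invariant chain in dendritic cells and B cells, measured 12.76, 12.93 and 11.46 in knockouts 1 to 3 against 10.37, 10.78 and 10.92 in wild types 1 to 3 (difference 1.69, SE 0.39, limma adjusted p = 0.234). All knockouts lay above all wild types, knockout 3 by less.

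The asparaginyl endopeptidase Lgmn, which starts the cleavage of some antigens and of the invariant chain, measured 11.00, 10.70 and 9.10 in knockouts 1 to 3 against 8.39, 8.27 and 8.28 in wild types 1 to 3 (difference 1.95, SE 0.47, limma adjusted p = 0.240). Ifi30, the lysosomal thiol reductase that opens disulphide bonds of antigens, measured 10.45, 10.86 and 8.73 against 8.20, 8.70 and 8.45 (difference 1.56, SE 0.52, adjusted p = 0.314 by limma). Ctsl, the cathepsin that processes the invariant chain in thymic epithelium, differed by 0.74 and the aspartic protease Ctsd by 0.86. The list's mean was 1.20 and 1.16 above the wild-type mean in knockouts 1 and 2 and 0.35 above it in knockout 3. In the macrophage list, too, knockout 3 was the lowest of the knockouts. Many of these proteases are lysosomal enzymes that macrophages express, and the part of the macrophage signal was not tested.

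Among 10 genes that control class II transcription, 0 passed limma, and the median difference was 0.09 log2. At an unadjusted limma p under 0.05, 2 were higher and 1 lower, where 6.71% and 5.38% of all genes were. Irf8, an interferon regulatory factor of myeloid and B cells, measured 8.58, 9.09 and 8.85 in knockouts 1 to 3 against 7.06, 7.27 and 7.74 in wild types 1 to 3, without overlap. The difference was 1.48 log2 (SE 0.23, limma adjusted p = 0.174), or 2.80-fold, and, as for Cd74, knockout 3 lay among the other knockouts. Spi1, which encodes the myeloid factor PU.1, measured 8.67, 8.54 and 7.66 against 7.26, 6.61 and 6.56 (difference 1.48, SE 0.32, limma adjusted p = 0.213). Rfxank, a subunit of the RFX complex that binds the X box, measured 5.46, 5.58 and 6.08 in knockouts 1 to 3 and 6.42, 6.64 and 6.34 in wild types 1 to 3 (difference −0.76, SE 0.21, limma adjusted p = 0.261). The other RFX subunits, Rfx5 and Rfxap, differed by −0.14 and −0.03, and the subunits of NF-Y, which binds the Y box, by 0.68 for Nfya, 0.21 for Nfyb and 0.08 for Nfyc.

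Interferon-gamma induces Ciita in many cell types. Of the 8 genes listed for this axis 7 were measured and 0 passed limma, with a median difference of 0.04 log2. At an unadjusted limma p under 0.05, 1 was higher, where 6.71% of all genes were. Ifng read 2.51 to 2.99 in KSR2-/- fat and 2.62 to 2.71 in WT fat, below the 20th percentile of all values (2.93) on 5 of 6 arrays. The receptor chain Ifngr2 measured 7.47, 6.59 and 6.53 in knockouts 1 to 3 and 6.32, 6.08 and 5.66 in wild types 1 to 3 (difference 0.84, SE 0.31, limma adjusted p = 0.353), and Irf1 differed by 0.07.

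Of 10 genes of class II turnover and costimulation, 0 passed limma, with a median difference of 0.16 log2. At an unadjusted limma p under 0.05, 2 were higher, where 6.71% of all genes were. Cd83, which protects surface class II from degradation, differed by 0.87 (SE 0.35), with knockout 3 at 7.16 inside the wild-type range of 6.83 to 7.21. The ubiquitin ligase Marchf1, which sends class II to degradation, differed by 0.49 (SE 0.31), and the costimulatory ligands Cd80 and Cd86 by 0.00 and −0.07. The adhesion ligand Icam1 differed by 0.83 (SE 0.29, limma adjusted p = 0.335). On the T cell side Cd4, the coreceptor that binds class II, measured 5.46, 4.66 and 5.09 in knockouts 1 to 3 and 5.86, 4.66 and 4.82 in wild types 1 to 3, a difference of −0.04 (SE 0.36).

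Class I presentation, which shows peptides from inside the cell to CD8+ T cells, gave 0 of 13 genes past limma. At an unadjusted limma p under 0.05, 1 was higher and 1 lower, where 6.71% and 5.38% of all genes were. The list had a median difference of 0.07 log2. Its mean lay at −0.14, 0.11 and 0.14 from the wild-type mean in knockouts 1 to 3. The heavy chains H2-K1 and H2-D1 and the light chain B2m differed by 0.01, 0.07 and −0.01 (SE 0.15, 0.17 and 0.15). The chaperone Calr, at 0.41, and the trimming peptidase Erap1, at −0.72, had the lowest p of the list (limma adjusted p = 0.413 and 0.409).

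**Figure D4:**
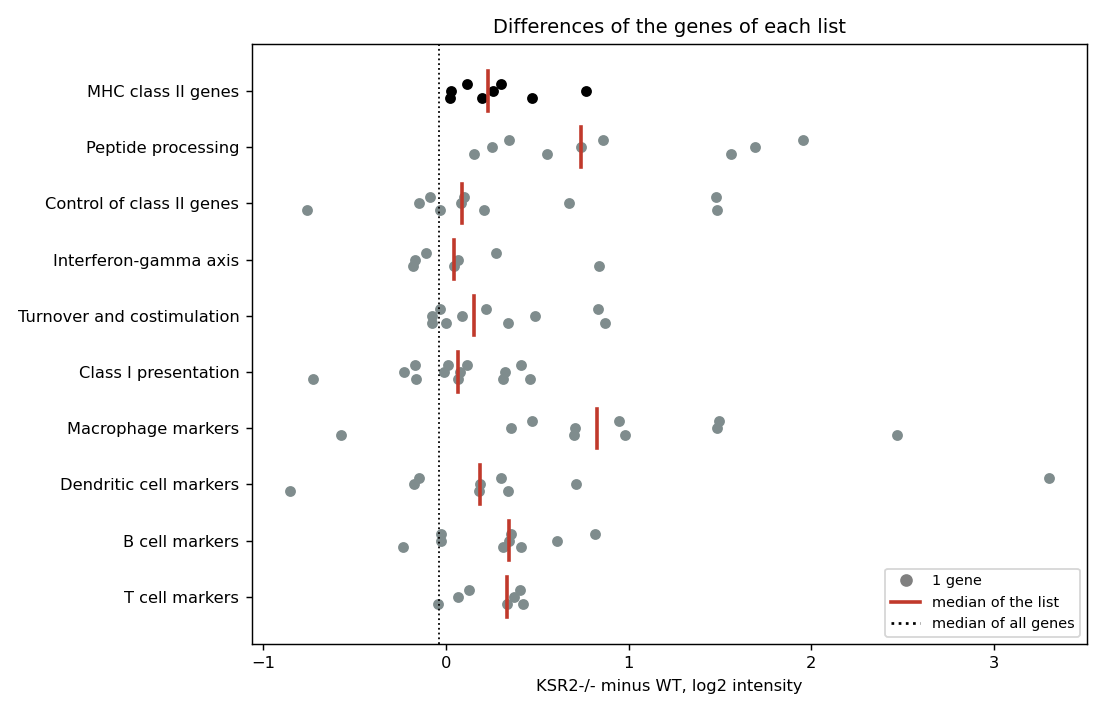
Difference of KSR2-/- minus WT in log2 intensity (horizontal axis) of each measured gene, by list, with the list's median as a red line and the median of all genes as a dotted line. The class II genes have a median of 0.23, below those of peptide processing (0.74) and macrophage markers (0.83).

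A class II profile, the mean of the centred values of H2-Aa, H2-Ab1, H2-Eb1 and Cd74, stood at 0.10, 0.17 and 0.13 in knockouts 1 to 3 and −0.18, −0.25 and 0.03 in wild types 1 to 3. It is an average and not a pattern that each of these genes shows. H2-Aa read highest on wild type 1, at 11.84, where the profile stood at −0.18. Among 9031 other genes of at least median signal, with an SD at least 0.5 times that of the profile, the 8 nearest to it over the 6 arrays, by root-mean-square difference, were Hnrnpk, Nisch, Spsb2, Stxbp2, Szrd1, Rnf215, Eif3c and Get4. Their distances were 0.05 to 0.06 log2, where the median gene had 0.35. These 8 were picked for the smallest distances, so this gap was set by the choice and nothing is concluded from it.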

How the data were processed

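The deposited table held 1 column per array of RMA intensity values, per the submitters' processing notes, which give no version; the authors deposited them on a linear scale, as the values show, and log2 was taken with no pseudocount, since the lowest was 2.96. RMA normalizes the arrays together. Of 45101 probe sets, 34945 had 1 gene symbol in the platform annotation, updated through gene identifiers to RefSeq of GRCm38.p6. The probe set with the highest mean represented each of 18193 genes, with no filter. The moderated test of limma 3.58.1 (lmFit and eBayes, R 4.3.3, two-sided) set KSR2-/- against WT and gave every SE and interval. Its p-values were adjusted by Benjamini-Hochberg across the genes, or across all probe sets for those that represent no gene. Precision is limited by how few arrays there are. A simulation over 18193 genes drew independent normal noise with each gene's own spread, and changed 100 genes 2-fold and 100 genes 4-fold. In it 24% of genes changed 2-fold and 70% of those changed 4-fold were recovered, with 1 false call. Noise shared between genes, or another share of changed genes, was not simulated and could give other rates. Replicates were numbered in accession order. The genes, lists and the rule for genes nearest the class II profile (smallest root-mean-square difference) were chosen with earlier results of these data known. Any measured gene of the members and lists could be named. Listed genes without a single-gene probe set were not analysed here. Endothelial, stromal progenitor, lymph node stroma and adipocyte markers had median differences of 0.20, −0.33, −0.00344 and −0.13 log2, with 0 called by limma. At an unadjusted limma p under 0.05 they had 0, 1, 0 and 3 genes, where 12.1% of all genes stood.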

Additional observations from a re-analysis of the deposited data

How the results depend on the processing

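The count of 0 called class II genes held in all 15 alternatives fitted, and their median difference ran from 0.15 to 0.31 log2 over 17 alternatives, 0.18 to 0.31 with 1 array left out. Some alternatives could not change a gene's difference: the series block, the trended or robust prior, every probe set on its own and the median-mean filter. The mean of all probe sets could not change it either for a gene with 1 probe set. Of 133 alternative values of single class II genes, 122 kept their sign, those fixed in advance among them. The other 11 changed it, and none of those with a test passed at the adjusted p. Those 11 were Ciita at −0.22 without knockout 1, −0.16 without wild type 3 (−0.22 to 0.20 with 1 array left out), −0.0177 with each array centred on its median gene, −0.11 with the Gapdh difference as a covariate and −0.0852 within the higher-numbered series; H2-DMa at −0.0849 without wild type 1 (range −0.0849 to 0.28) and −0.0655 within the lower-numbered pair; H2-Aa at −0.00520 without wild type 2 (range −0.00520 to 0.0841) and −0.00932 after centring; H2-Oa at −0.0244 without wild type 2 (range −0.0244 to 0.51); and H2-Ab1 at −0.00582 within the lower-numbered pair. The count at an unadjusted p under 0.05, 1 of 8, ran from 0 to 2 with 1 array left out and was 0 after centring and under the median-mean filter. H2-Ab1 ran from 0.16 to 0.47 with 1 array left out. Cd74 ran from 0.31 to 0.56 (limma adjusted p = 0.273 to 0.758) and H2-Ob from 0.39 to 1.45 (0.317 to 0.914). The shared H2-DMb probe sets, whose alternatives were added after seeing the data, ran from 1.14 to 1.46 (the first, limma adjusted p = 0.0734 to 0.810) and from 0.99 to 1.67 (the second, 0.238 to 0.872). The count over all genes was 1, and 0 to 816 with 1 array left out (816 without knockout 3, 9 without wild type 3), 0 with the animal series as a block or with every probe set on its own, 2 after repeated quantile normalization, 16 after centring, 12 among genes at or above the median mean, 10 with a trended prior and 6 with the Gapdh covariate. Ciita, H2-Oa and H2-Ob fell under the filter at the median mean and have no value there. No paired analysis was possible because the labels give the arrays no shared replicate numbers. The dim signal of Ciita limits what could be seen of it, and the number of arrays limits all values. The causes of these shifts were not tested.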

Other observations

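Among the 23 genes on the array whose symbols begin with H2-, 17 were outside the class II list. Of these 17, 3 had an unadjusted limma p under 0.05, 1 higher and 2 lower in KSR2-/- fat. Of all genes 12.1% had such a p, 6.71% higher and 5.38% lower. The 3 genes are named here after their values were seen. H2-Q10, which encodes a secreted class I-like protein known chiefly from liver, measured 5.23, 5.30 and 5.48 in knockouts 1 to 3 against 9.22, 9.76 and 7.18 in wild types 1 to 3. The highest knockout lay well below the lowest wild type, and the difference was −3.39 log2 (SE 0.61, limma adjusted p = 0.193), −4.23 among the higher-numbered animals and −1.71 in the lower-numbered pair. H2-Ke6, now known as the dehydrogenase gene Hsd17b8 and not an antigen-presenting molecule, measured 7.43, 7.88 and 8.11 against 8.29, 8.95 and 8.65 (difference −0.82, SE 0.25, limma adjusted p = 0.289). H2-Q5, a class I gene, measured 5.80, 6.02 and 5.43 against 4.89, 5.22 and 5.32 (difference 0.61, SE 0.21, adjusted p = 0.325 by limma). None passed the test over all genes, and H2-Q genes are similar enough in sequence that probe sets may read several of them.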
